A study of Mus musculus with 26 samples.

Results

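Striatal interneurons were followed through 10 marker genes in RNA sequencing of mouse striatum: Calb2 for calretinin neurons, Pvalb for fast-spiking neurons, Sst, Npy and Nos1 for the neurons that make somatostatin, neuropeptide Y and nitric oxide, Vip and Cck for peptide neurons, and Chat, Slc18a3 and Slc5a7 for cholinergic neurons. The genes were chosen by symbol as class markers, with no measured value in the rule. All 10 were listed in each of the authors' 5 deposited tables, out of 14833 genes listed in any table and 12556 listed in every table.

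The striatum consists mainly of GABAergic projection neurons, and its interneurons are a small minority that shape their firing through GABA, acetylcholine, nitric oxide and peptides. In Huntington's disease the projection neurons are the cells best known to be lost, while the neurons with somatostatin, neuropeptide Y and nitric oxide synthase are known for their resistance. The markers are not private to the striatum: calretinin is also made in the thalamus and hypothalamus, and Vip, Cck, Sst and Npy are also expressed in the cortex.

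The 26 libraries of total striatal RNA formed 9 groups. R6/1 mice carry a transgene with the first exon of human huntingtin and an expanded repeat under the human promoter. They were sampled at 4 weeks and at 8 weeks with wild-type mice of the same ages, with 3 libraries in each group. CHL2 mice, named only as a model in the labels and known as a knock-in of an expanded repeat in the mouse's own huntingtin gene, were sampled at 1 year with wild-type mice, with 3 libraries in each group. The other groups were sampled at 10 weeks and all carried an adeno-associated virus (AAV): R6/1 mice with Elk-1 AAV in 4 libraries, R6/1 mice with control AAV in 2 and wild-type mice with control AAV in 2. The control vector is called mCherry in the deposited rows, no group of that age was without a virus, and neither the vector's promoter nor its route is given in the sources used here. Whether the libraries of a group came from separate animals is not stated either, so the deposited p-values may measure technical spread only.

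The authors' deposited tables hold 1 pooled value per group and gene in FPKM, fragments scaled to transcript length and to the mapped fragments of the library, and no value per library. Depth per library and the spread between libraries are therefore unknown, and no SD can be given. The words rose and fell are kept for genes with an authors' q, their p adjusted over all genes of the table, below 0.05. The 95% intervals printed here were implied by the deposited p under a normal test. They are unadjusted, and they are upper limits in width where p stood at the lowest value deposited, 5e-05. Each table was normalised on its own, so levels from different tables are set side by side only as a description. As a check of the tissue, projection neuron genes were abundant in all 9 groups, and 2, 14, 13 and 11 of 15 such genes fell in R6/1 at 4 weeks, in R6/1 at 8 weeks, in CHL2 and in control-AAV R6/1, against 0 called under Elk-1 AAV, where 3 had an unadjusted p below 0.05.

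Interneuron markers went both ways: Calb2 rose, peptide genes fell, and Pvalb and the cholinergic genes were not called in any table. At 4 weeks 0 of 10 markers were called by the authors' Cuffdiff test, with 4 at an unadjusted p below 0.05, against 0.468% of all 14539 genes called, 0.275% higher and 0.193% lower. At 8 weeks 1 marker rose and 4 fell in R6/1, where 6.12% of 14320 genes were called, 0.789% higher and 5.34% lower. In CHL2 1 rose and 1 fell, where 3.65% of 14402 genes were called, 1.67% higher and 1.97% lower. In control-AAV R6/1 at 10 weeks 1 rose and 3 fell relative to control-AAV wild type, where 3.24% of 12980 genes were called, 0.724% higher and 2.51% lower. Under Elk-1 AAV 1 fell and 0 rose, where 0.575% of 12701 genes were called, 0.299% higher and 0.276% lower. The median log2 fold change of the 10 markers was -0.024, -0.40, -0.27, -0.66 and 0.071 in the same order, against 0.0014, 0.0068, 0.0023, 0.016 and 0.014 over all genes with a mean of at least 0.5 FPKM. Called markers included, 8 of 10 had an unadjusted Cuffdiff p below 0.05 at 8 weeks, 6 in CHL2, 7 in control-AAV R6/1 and 4 under Elk-1 AAV. In tissue RNA, fewer cells of a type and less RNA per cell cannot be told apart.

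**Figure D1:**
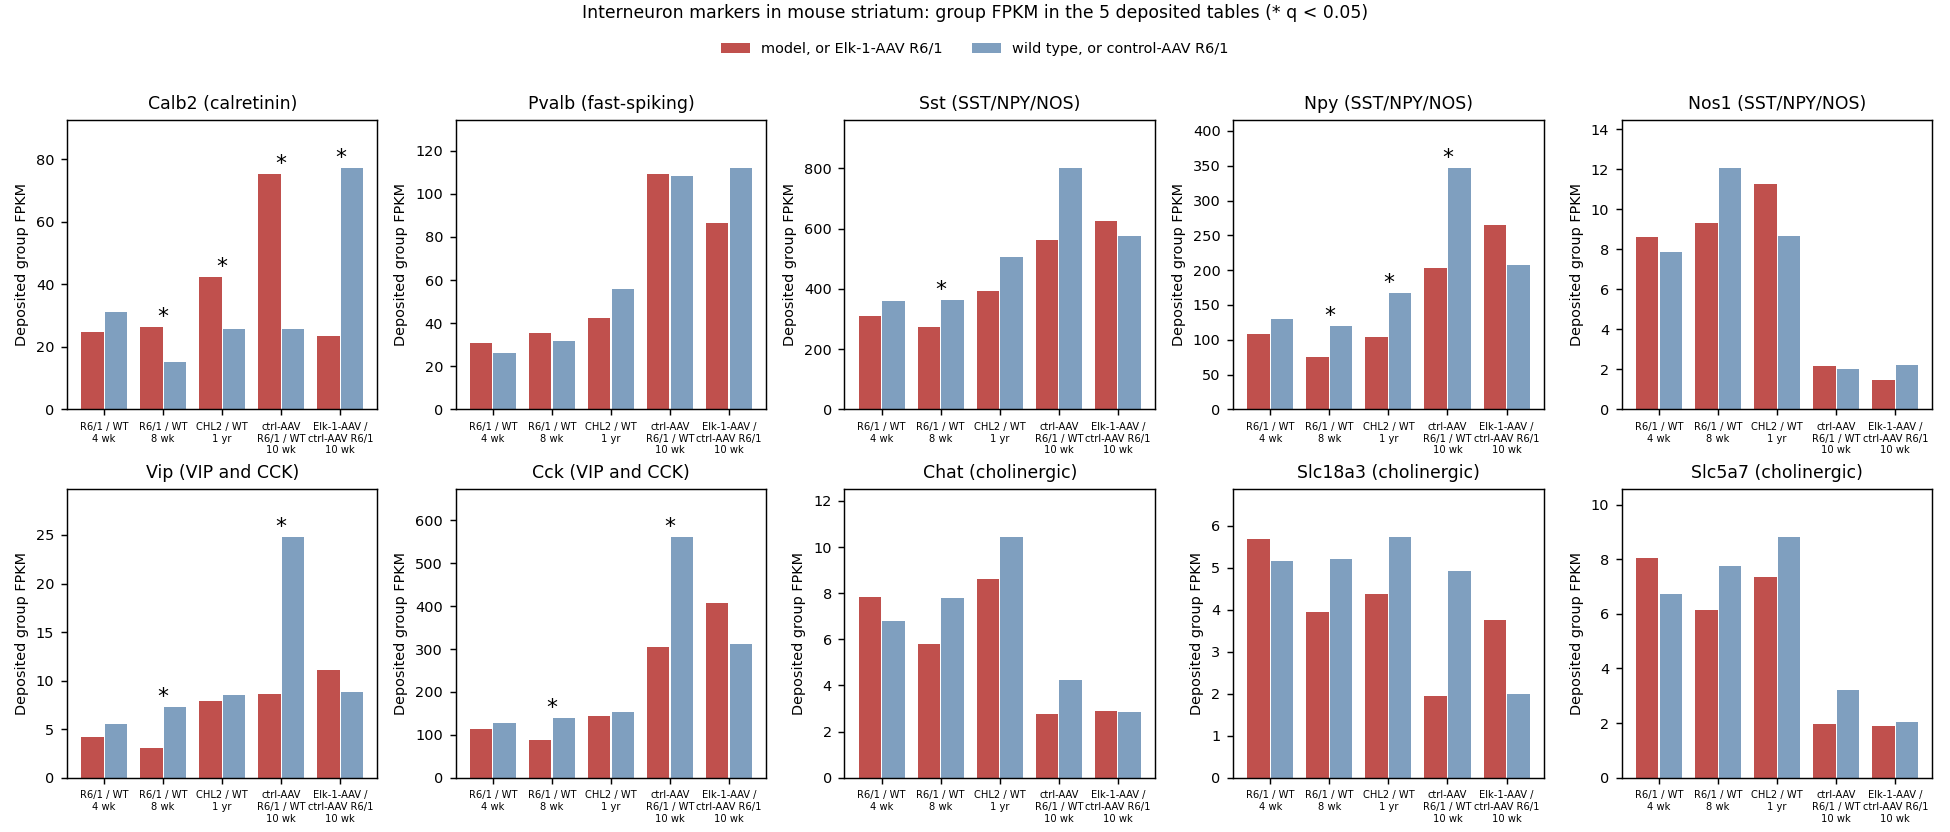
Group FPKM of each marker (vertical axis, linear, from 0) in the 5 deposited tables (horizontal axis); red bars are the model or Elk-1-AAV R6/1, blue bars wild type or control-AAV R6/1, a star marks q below 0.05, and there are no error bars because each bar is 1 pooled value. Calb2 stands at 75.3 FPKM in control-AAV R6/1 and 25.7 in control-AAV wild type, while Vip stands at 8.62 and 24.8.

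Calb2 encodes calretinin, a cytosolic calcium-binding protein that marks a class of small striatal GABA neurons, and is listed on chromosome 8 at 112666437 to 112692106 (mm9). At 4 weeks its level was 24.7 FPKM in R6/1 and 31.3 FPKM in wild type in the authors' deposited table (-0.34 on the log2 scale, interval -0.59 to -0.098, q = 0.356). At 8 weeks it stood at 26.4 FPKM in R6/1 and 15.1 FPKM in wild type (0.81, 0.42 to 1.19, q = 0.00160 in the authors' deposited table). Calb2 was thus not called at 4 weeks and rose at 8 weeks, where it was 18th by fold change among the 113 genes that rose. In CHL2 it was 42.4 FPKM, against 25.6 FPKM in wild type (0.73, 0.38 to 1.08, q = 0.00303 in the authors' deposited table), 74th of the 241 genes that rose. Both calls were lost when the standard errors were taken from the deposited statistic as it stands, which gives wider intervals than the deposited p.

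The widest differences of Calb2 were in the AAV groups. It reached 75.3 FPKM in control-AAV R6/1, against 25.7 FPKM in control-AAV wild type (log2 fold change 1.55, interval 0.80 to 2.30, q = 0.00312 in the authors' deposited table), 32nd of 94 genes that rose. Under Elk-1 AAV it was 23.5 FPKM, against 77.1 FPKM in control-AAV R6/1 (-1.72, -2.54 to -0.89, q = 0.0122 in the authors' deposited table), 7th of 35 genes that fell. Both results rest on the same pool of 2 control-AAV R6/1 libraries, and the pooled value does not show whether both libraries were high. Ordered by level, the lowest Calb2 value was that of wild type at 8 weeks, the values of Elk-1-AAV R6/1, R6/1 at 4 weeks, wild type at 1 year, control-AAV wild type and R6/1 at 8 weeks lay close together from 23.5 to 26.4 FPKM, wild type at 4 weeks and CHL2 stood above them, and control-AAV R6/1 was highest. The span over groups was 5.10-fold, and these orders across tables were not tested.

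Calb2 was the only marker whose change passed the test of a difference between the ages of R6/1. The log2 fold change was 0.81 at 8 weeks and -0.34 at 4 weeks, a difference of 1.15 (standard error 0.234, interval 0.69 to 1.61, by a normal approximation on the 2 deposited changes), which passed at 0.05 after adjustment over 14187 genes. It did not pass with standard errors from the statistic as it stands. The test passed for 1.29% of all genes and for 1 of 10 markers. Slc5a7, Nos1, Chat, Cck, Vip and Npy had an unadjusted p below 0.05 in it and did not pass after adjustment. Each of these had a lower change at 8 weeks than at 4 weeks. Calb2 itself was 24.7 FPKM at 4 weeks and 26.4 FPKM at 8 weeks in R6/1, and 31.3 and 15.1 FPKM in wild type. The ages were normalised separately, and a change with age within either genotype was not tested. Between control-AAV R6/1 at 10 weeks and R6/1 at 8 weeks the change of Calb2 differed by 0.75 (-0.098 to 1.59), which did not pass, and 0 of 10 markers passed there, against 0.535% of 12888 genes. In that test 0 of the 10 had an unadjusted p below 0.05. Ages, injection and tables differ together in that pair, so they cannot be told apart.

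**Figure D2:**
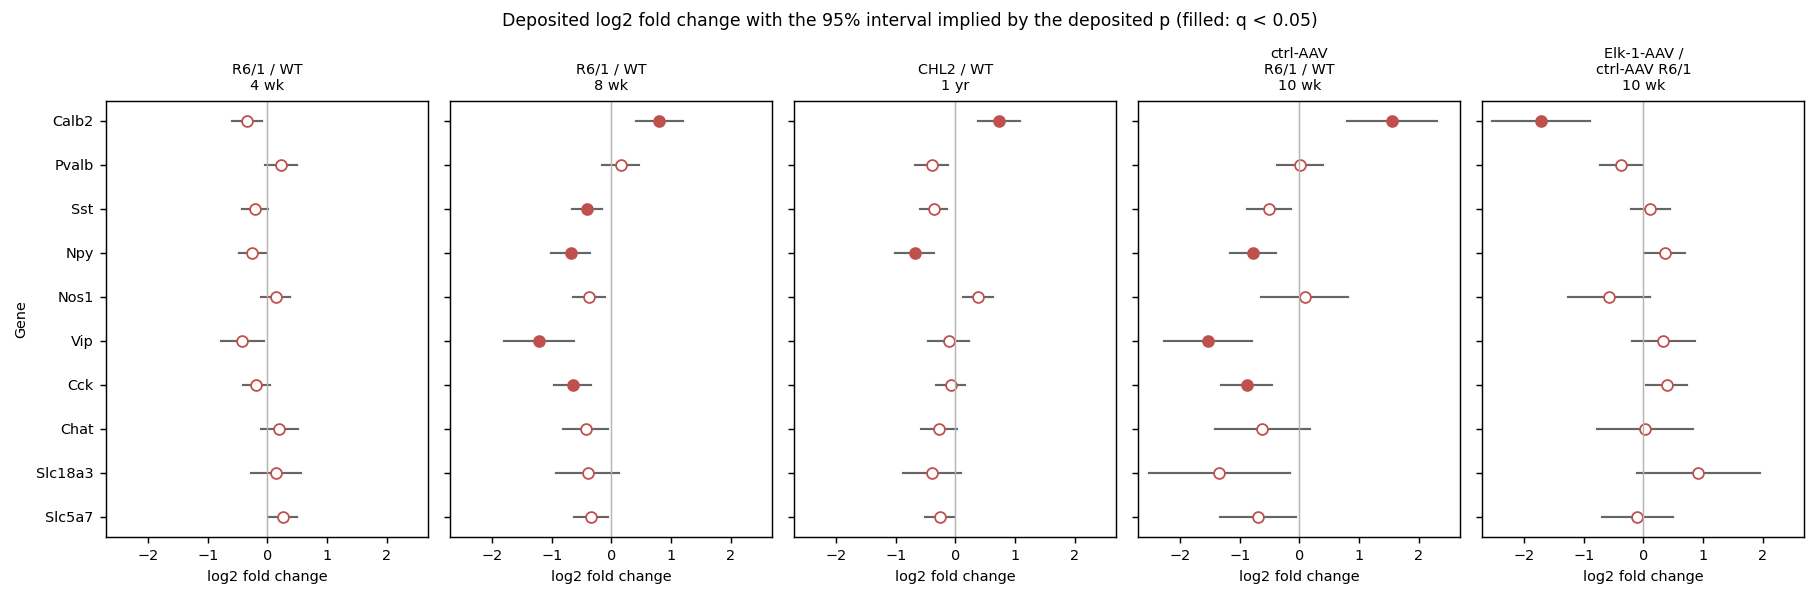
Deposited log2 fold change (horizontal axis) of each marker (vertical axis) in the 5 comparisons; lines are the 95% intervals implied by the deposited p and filled points have q below 0.05. Calb2 lies at 0.81, 0.73 and 1.55 in the 3 comparisons in which it rose and at -1.72 under Elk-1 AAV, opposite to the called peptide genes in each of the 3.

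Genes of the thalamus and of the septum and hypothalamus, regions near the striatum that hold calretinin neurons, moved beside Calb2 in some tables. In control-AAV R6/1 5 of 8 tested thalamic genes rose (median log2 fold change 1.21, summed level 72.4 FPKM, against 33.5 FPKM in control-AAV wild type). Septal and hypothalamic genes rose there in 7 of 13 cases (1.85, 508 against 101 FPKM). Under Elk-1 AAV 3 of 7 thalamic genes fell (-1.62, 33.4 FPKM, against 72.8 FPKM in control-AAV R6/1), as did 3 of 13 septal and hypothalamic genes (-2.42, 69.0 against 520 FPKM). In CHL2 1 of 9 thalamic genes rose (median 0.019, 53.7 against 48.7 FPKM), with 8 of 13 septal and hypothalamic genes (1.19, 229 against 103 FPKM). At 8 weeks 1 of 9 thalamic genes rose and 1 fell (median -0.23, 39.5 FPKM in R6/1 against 37.7 FPKM in wild type). Of the septal and hypothalamic genes 1 of 11 rose and 0 fell there, 7 had higher values in R6/1, the direction of Calb2, and 4 had lower ones (0.43, 46.7 against 34.2 FPKM, 4 at an unadjusted p below 0.05). At 4 weeks 4 of 11 septal and hypothalamic genes fell (-0.64, 79.4 against 155 FPKM), and 1 of 8 thalamic genes fell (0.16, 43.9 against 46.7 FPKM). Of 8 genes of olfactory neurons and neuroblasts, which include calretinin cells near the striatum, Dcx rose in CHL2 (0.45), and 0 of 8, 0 of 8, 0 of 7 and 0 of 7 were called by Cuffdiff in the tables of 4, 8 and 10 weeks and Elk-1 AAV, with 3, 0, 0 and 0 at an unadjusted p below 0.05. No gene of either list was at 0 in a table that lists it, and their part in the Calb2 result was not tested.

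Slc17a6, the vesicular glutamate transporter of thalamic and hypothalamic neurons, was called in the same direction as Calb2 in each of the 4 tables in which Calb2 was called. It was picked from the thalamic list after its values were seen, and was the 1 gene of 9 that rose at 8 weeks and in CHL2. Thalamic genes as a list did not follow Calb2 at 8 weeks, where 5 of 9 had lower and 4 had higher values in R6/1 (median -0.23). In CHL2 their median was 0.019. The level of Slc17a6 in the authors' deposited table was 12.9 FPKM in R6/1 and 7.98 FPKM in wild type at 8 weeks, and 13.7 FPKM in CHL2 and 8.64 FPKM in wild type at 1 year. In control-AAV R6/1 it was 19.5 FPKM, against 7.73 FPKM in control-AAV wild type in the authors' deposited table. Under Elk-1 AAV it was 6.17 FPKM, against 19.9 FPKM in control-AAV R6/1 in the authors' deposited table. These last comparisons share the control-AAV R6/1 pool, so their calls are not independent. At 4 weeks, where Calb2 was not called, Slc17a6 stood at 6.62 FPKM in R6/1 and 6.06 FPKM in wild type (q = 0.999 in the authors' deposited table). Prkcd, a thalamic protein kinase C gene, followed Calb2 at 10 weeks (log2 fold change 1.59 in control-AAV R6/1 and -1.61 under Elk-1 AAV, both called) but was 4.56 FPKM in R6/1 and 5.71 FPKM in wild type at 8 weeks, with q = 0.460 in the authors' deposited table. Oxt, the oxytocin precursor, was at 3.92 FPKM in R6/1 and 1.68 FPKM in wild type at 8 weeks (q = 0.277 in the authors' deposited table), and at 110 FPKM in control-AAV R6/1 and 15.7 FPKM in control-AAV wild type.

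**Figure D3:**
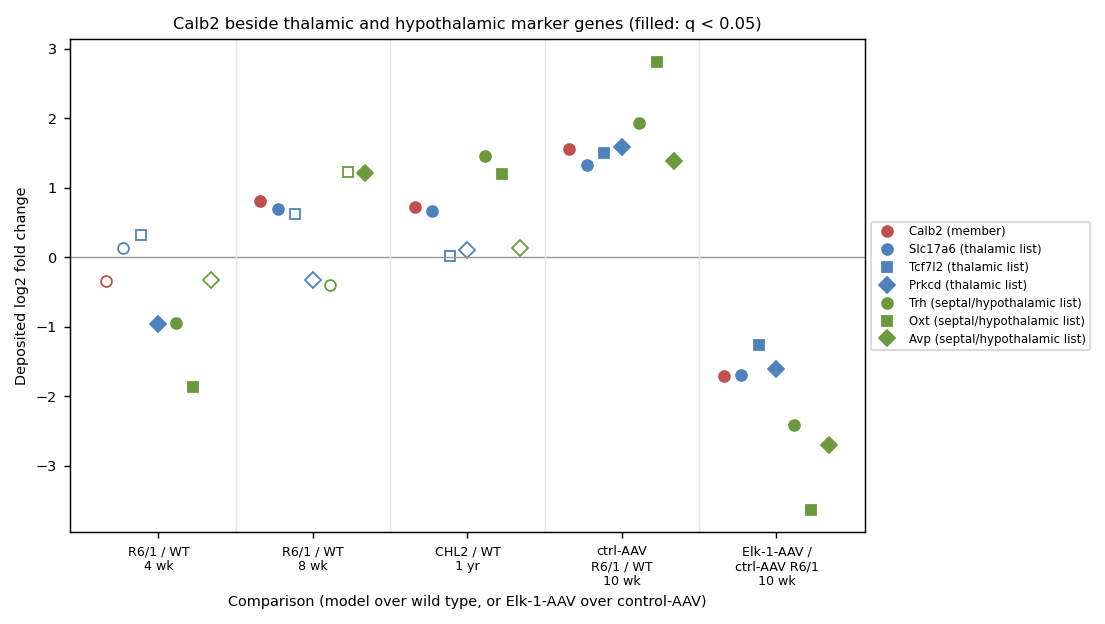
Deposited log2 fold change (vertical axis) of Calb2 in red, 3 thalamic genes in blue and 3 septal and hypothalamic genes in green, by comparison (horizontal axis); filled symbols have q below 0.05, and the 6 genes beside Calb2 were picked from their lists after their values were seen. That choice fixes that all 6 are filled in control-AAV R6/1 and under Elk-1 AAV, where 3 of 7 tested thalamic and 3 of 13 tested septal and hypothalamic genes were called; at 8 weeks Slc17a6 and Avp are filled with Calb2.

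Of the markers of somatostatin, neuropeptide Y and nitric oxide neurons, Npy was called in 3 tables, Sst in 1 and Nos1 in 0, and Npy and Sst had the same sign in all 5; differences between markers were not tested. Npy, the precursor of neuropeptide Y (chromosome 6, 49772727 to 49779504, mm9), fell in all 3 genotype comparisons after 4 weeks. Its level was 108 FPKM in R6/1 and 129 FPKM in wild type at 4 weeks (log2 fold change -0.25, interval -0.48 to -0.021, q = 0.787 in the authors' deposited table). At 8 weeks it was 74.8 FPKM in R6/1 and 120 FPKM in wild type (-0.68, -1.01 to -0.35, q = 0.00160 in the authors' deposited table). CHL2 gave 104 FPKM, against 167 FPKM in wild type (-0.68, -1.01 to -0.35, q = 0.00303 in the authors' deposited table). On the deposited scale the CHL2 change differed from that at 8 weeks by -0.0011, with an interval of -0.47 to 0.46. Relative to genes of like transcript length the changes were -0.53 in CHL2, where the call was lost, and -0.72 in R6/1 at 8 weeks. In control-AAV R6/1 Npy was 203 FPKM, against 346 FPKM in control-AAV wild type (-0.77, -1.16 to -0.38, q = 0.00548 in the authors' deposited table). Under Elk-1 AAV it was 265 FPKM, against 207 FPKM in control-AAV R6/1 (0.36, 0.015 to 0.70, q = 0.949 in the authors' deposited table), which did not pass.

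Sst, the precursor of somatostatin (chromosome 16, 23889666 to 23890930, mm9), had the highest FPKM of the 10 markers in every group. It fell at 8 weeks and was called in no other table: 273 FPKM in R6/1 and 362 FPKM in wild type (log2 fold change -0.41, interval -0.65 to -0.16, q = 0.0230 in the authors' deposited table). At 4 weeks it was 311 FPKM in R6/1 and 360 FPKM in wild type (-0.21, q = 0.939 in the authors' deposited table). CHL2 gave 392 FPKM, against 505 FPKM in wild type (-0.37, -0.60 to -0.13, q = 0.0549 in the authors' deposited table). The values were lower in the model in all 4 genotype comparisons, and on the deposited scale the CHL2 change differed from that at 8 weeks by 0.043 (-0.30 to 0.38), which did not pass. Relative to genes of like transcript length the log2 value of Sst was -0.21 in CHL2, not called, and -0.45 in R6/1 at 8 weeks. Control-AAV R6/1 had 561 FPKM, against 800 FPKM in control-AAV wild type (-0.51, -0.88 to -0.14, q = 0.145 in the authors' deposited table). Under Elk-1 AAV Sst was 624 FPKM, against 575 FPKM in control-AAV R6/1 (0.12, q = 0.999 in the authors' deposited table).

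Nos1, neuronal nitric oxide synthase (chromosome 5, 118317127 to 118403820, mm9), was not called in any table. Its change in CHL2 at 1 year nonetheless differed from that in R6/1 at 8 weeks. Its level was 9.32 FPKM in R6/1 and 12.1 FPKM in wild type at 8 weeks (log2 fold change -0.37, interval -0.64 to -0.10, q = 0.0940 in the authors' deposited table). In CHL2 it was 11.3 FPKM, against 8.65 FPKM in wild type (0.38, 0.13 to 0.63, q = 0.0666 in the authors' deposited table). The CHL2 change exceeded that of R6/1 at 8 weeks by 0.75 (standard error 0.188, interval 0.38 to 1.12), which passed after adjustment over 14155 genes, as 0.593% of genes and 1 of 10 markers did. This difference no longer passed with standard errors from the statistic as it stands, nor when both changes were set relative to genes of like transcript length. The longest annotated Nos1 transcript has 10123 bases, the longest of the 10 markers. Model, age and normalisation differ together between CHL2 and R6/1 at 8 weeks, so they cannot be told apart. At 4 weeks Nos1 was 8.64 FPKM in R6/1 and 7.85 FPKM in wild type (0.14, q = 0.999 in the authors' deposited table). In the AAV tables it was near 2 FPKM: 2.15 in control-AAV R6/1 and 2.02 in control-AAV wild type, and 1.47 under Elk-1 AAV against 2.20 in control-AAV R6/1 in the authors' deposited tables, with neither pair called.

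Other genes of this class showed few calls. At 8 weeks 2 of 8 fell (median log2 fold change -0.30, 6 at an unadjusted p below 0.05): Crhbp, which encodes a binding protein of corticotropin-releasing hormone, was 5.71 FPKM in R6/1 and 8.84 FPKM in wild type (q = 0.0426 in the authors' deposited table). Tacr1, the substance P receptor of these interneurons, was 5.79 FPKM in R6/1 and 8.20 FPKM in wild type (q = 0.0173 in the authors' deposited table). In CHL2 1 of 8 rose (median 0.057), the NMDA receptor subunit gene Grin3a, at 10.5 FPKM against 6.93 FPKM in wild type (q = 0.00303 in the authors' deposited table). At 4 weeks, in control-AAV R6/1 and under Elk-1 AAV 0 of 8 were called by Cuffdiff, with 1, 2 and 2 at an unadjusted p below 0.05. Among 8 genes listed for nitric oxide signalling was Pde1b, a cyclic nucleotide phosphodiesterase abundant in projection neurons. It was 197 FPKM in R6/1 and 430 FPKM in wild type at 8 weeks (q = 0.00160 in the authors' deposited table). Pde1b also fell in CHL2 (-0.72) and in control-AAV R6/1 (-0.91). In the list 1 of 8 rose at 4 weeks, 1 of 8 fell at 8 weeks and in CHL2, 1 of 7 fell in control-AAV R6/1, and 0 of 6 were called by Cuffdiff under Elk-1 AAV (1 at an unadjusted p below 0.05). Gucy1a2, a subunit of the nitric oxide receptor guanylyl cyclase, rose at 4 weeks, at 5.82 FPKM in R6/1 and 3.70 FPKM in wild type (q = 0.0145 in the authors' deposited table).

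Vip and Cck fell in R6/1 at 8 weeks and in control-AAV R6/1, and not in CHL2. Vip, the precursor of vasoactive intestinal peptide (chromosome 10, 4698926 to 4707323, mm9), was 4.15 FPKM in R6/1 and 5.54 FPKM in wild type at 4 weeks (log2 fold change -0.42, interval -0.78 to -0.058, q = 0.685 in the authors' deposited table). At 8 weeks it was 3.11 FPKM in R6/1 and 7.24 FPKM in wild type (-1.22, -1.81 to -0.63, q = 0.00160 in the authors' deposited table). Control-AAV R6/1 had 8.62 FPKM, against 24.8 FPKM in control-AAV wild type (-1.52, -2.26 to -0.79, q = 0.00312 in the authors' deposited table). These were the largest falls among the 10 markers in both tables, 111th of 764 falls at 8 weeks and 49th of 326 at 10 weeks. With the statistic as it stands the 8-week calls of Vip and Sst were lost. In CHL2 Vip was 7.91 FPKM, against 8.54 FPKM in wild type (-0.11, -0.45 to 0.23, q = 0.898 in the authors' deposited table). Under Elk-1 AAV it was 11.1 FPKM, against 8.82 FPKM in control-AAV R6/1 (0.34, q = 0.999 in the authors' deposited table).

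Cck, the precursor of cholecystokinin (chromosome 9, 121398941 to 121404807, mm9), was 113 FPKM in R6/1 and 128 FPKM in wild type at 4 weeks (-0.19 on the log2 scale, q = 0.999 in the authors' deposited table). At 8 weeks it was 89.1 FPKM in R6/1 and 139 FPKM in wild type (-0.64, -0.96 to -0.33, q = 0.00160 in the authors' deposited table). Control-AAV R6/1 had 304 FPKM, against 562 FPKM in control-AAV wild type (-0.89, -1.31 to -0.46, q = 0.00312 in the authors' deposited table). CHL2 and its wild type were close, at 144 and 152 FPKM (-0.078, -0.32 to 0.16, q = 0.896 in the authors' deposited table). Under Elk-1 AAV Cck was 408 FPKM, against 311 FPKM in control-AAV R6/1 (0.39, 0.044 to 0.74, q = 0.853 in the authors' deposited table), which did not pass. The CHL2 change exceeded that of R6/1 at 8 weeks by 1.11 for Vip (0.43 to 1.79) and by 0.57 for Cck (0.17 to 0.96). Neither passed after adjustment over all genes. Both did with standard errors from the rescaled statistic, a setting chosen after the data were seen. Model, age and normalisation differ together in this pair as well.

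Genes of cortical excitatory neurons, which border the striatum and express Cck in mouse, had lower values in the tables in which Vip and Cck fell. At 8 weeks 5 of 14 fell (median log2 fold change -0.33, summed level 340 FPKM in R6/1 against 488 FPKM in wild type), and in control-AAV R6/1 5 of 14 fell (-0.47, 458 against 835 FPKM in control-AAV wild type). In CHL2 1 of 14 rose (-0.049, 339 FPKM against 326 FPKM in wild type), and at 4 weeks 0 of 14 were called, with 1 at an unadjusted p below 0.05 (0.051, 371 FPKM in R6/1 against 370 FPKM in wild type). Under Elk-1 AAV 0 of 14 were called, with 1 at an unadjusted p below 0.05 (0.19, 575 FPKM against 469 FPKM in control-AAV R6/1). Slc17a7, the cortical vesicular glutamate transporter, was 169 FPKM in R6/1 and 269 FPKM in wild type at 8 weeks (q = 0.00430), and 168 FPKM in CHL2 and 157 FPKM in wild type at 1 year (q = 0.859) in the authors' deposited tables. No gene of the list was at 0 in any group, and its part in the change of the peptide genes was not tested. Choroid plexus genes fell in 8 of 10 cases at 8 weeks (598 FPKM in R6/1 against 1544 FPKM in wild type), rose in 5 of 10 in control-AAV R6/1 (1604 against 351 FPKM in control-AAV wild type) and rose in 1 of 10 under Elk-1 AAV, where all 10 had higher values (2334 against 1643 FPKM in control-AAV R6/1). Of 7 microglial genes C1qa and C1qb rose under Elk-1 AAV and all 7 had higher values there (median 0.48, 350 FPKM against 218 FPKM in control-AAV R6/1). Of 7 oligodendrocyte genes Mobp and Cldn11 fell in CHL2 and all 7 had lower values there (median -0.52, 3096 FPKM against 4505 FPKM in wild type). The part of these cell types in the marker changes was not tested.

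**Figure D4:**
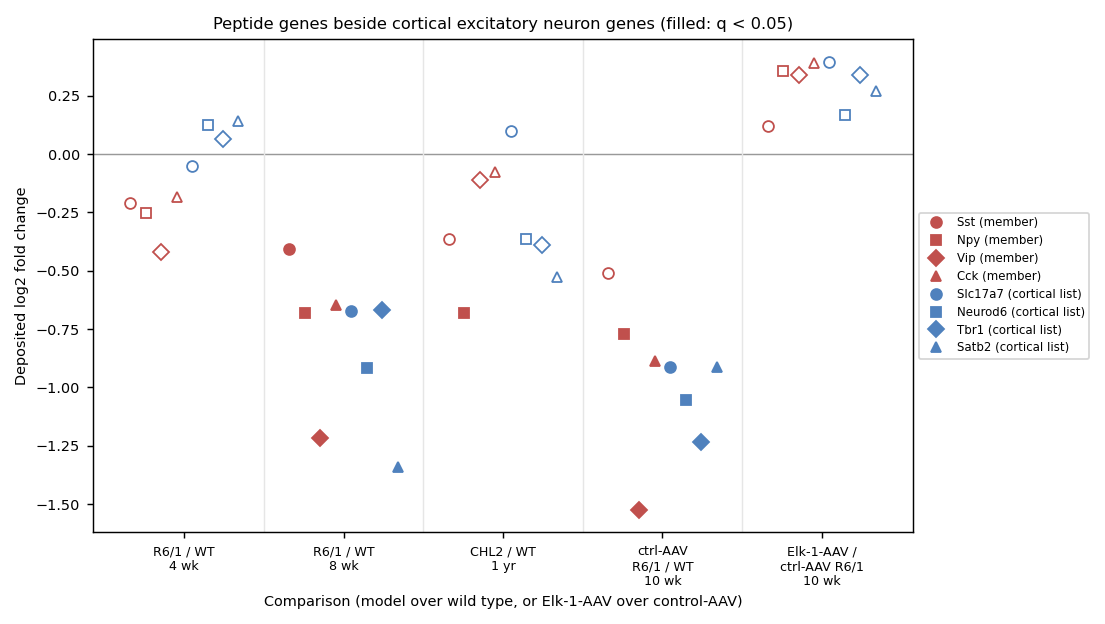
Deposited log2 fold change (vertical axis) of 4 peptide genes in red and 4 cortical excitatory neuron genes in blue, by comparison (horizontal axis); filled symbols have q below 0.05, and the cortical genes were picked from their list after their values were seen. All 4 peptide genes are filled and below 0 at 8 weeks; that the 4 cortical genes are too is fixed by the choice, as 5 of 14 in the list were called and 2 of 14 had higher values in R6/1.

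The sequence next to the start of the 4 peptide genes that fell at 8 weeks is shown because they fell in the same table and Sst is the textbook example of a gene with a cAMP response element, the site of the factor CREB. The 100 bases before the RefSeq start are given in the direction of transcription (GRCm38.p6, a later build than the mm9 of the files), and capitals mark the core site TGACG on either strand, of which TGACGTCA is the full site. They lie at chr16:23890845-23890944 (minus strand) for Sst, chr10:5639118-5639217 (plus strand) for Vip, chr9:121495695-121495794 (minus strand) for Cck and chr6:49822610-49822709 (plus strand) for Npy.
Sst: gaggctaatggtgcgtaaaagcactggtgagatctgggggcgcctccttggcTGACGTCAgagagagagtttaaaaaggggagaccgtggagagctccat
Vip: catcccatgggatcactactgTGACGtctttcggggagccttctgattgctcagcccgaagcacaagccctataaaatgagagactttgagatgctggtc
Cck: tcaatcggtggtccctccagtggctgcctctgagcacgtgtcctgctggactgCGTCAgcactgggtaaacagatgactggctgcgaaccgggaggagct
Npy: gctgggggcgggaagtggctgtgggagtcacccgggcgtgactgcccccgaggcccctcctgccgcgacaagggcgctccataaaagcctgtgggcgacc
Sst holds the full site, which begins 48 bases before the start, Vip holds a core site that begins 79 bases before it, Cck holds a core site 47 bases before it on the other strand, and the Npy window holds none. In windows of 250 bases before to 50 after the start, the full site was found for 1 of the 9 markers with a promoter entry and for 1.79% of all 32851 promoters in the RefSeq table, and the core site for 6 of 9 and for 20.8%. These 6 were Sst, Vip and Cck, and also Nos1, Chat and Slc18a3, which were called in no table. The core site thus did not separate the markers that fell from those not called. Searched in the same way on both strands, CCGGAAG, an ETS site of the kind bound by Elk-1, was found for 2 of 9 (Pvalb and Chat) and for 8.86% of all promoters. The Egr site GCGGGGGCG (2.91% of all promoters) and the CArG box of SRF (1.63%) were found in 0 of 9. Matches describe letters in these windows and no binding was measured.

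Receptors of the peptides were called in part. Cckbr, the brain cholecystokinin receptor, was 8.00 FPKM in R6/1 and 14.1 FPKM in wild type at 8 weeks, and 14.5 FPKM in control-AAV R6/1 against 24.5 FPKM in control-AAV wild type (q = 0.00160 and 0.0357 in the authors' deposited tables). Vipr1, a receptor of vasoactive intestinal peptide, was 3.74 FPKM in R6/1 and 6.22 FPKM in wild type at 8 weeks, and 3.97 FPKM in control-AAV R6/1 against 7.86 FPKM in control-AAV wild type (q = 0.00160 and 0.0115 in the authors' deposited tables). Vip and Cck and a receptor of each were thus called lower in the same 2 tables. These were the 2 of 10 tested receptor genes called at 8 weeks and at 10 weeks (list medians -0.071 and -0.16). In CHL2 2 of 12 rose (median 0.20): the neuropeptide Y receptor Npy2r, at 8.31 FPKM against 5.67 FPKM in wild type (q = 0.00932 in the authors' deposited table), and the somatostatin receptor Sstr1, at 9.93 FPKM against 6.31 FPKM in wild type (q = 0.00303 in the authors' deposited table). Npy2r fell under Elk-1 AAV, at 1.84 FPKM against 4.90 FPKM in control-AAV R6/1 (q = 0.0385 in the authors' deposited table). At 4 weeks 0 of 11 were called by Cuffdiff, with 3 at an unadjusted p below 0.05.

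Of the other genes of calretinin, Vip and Cck interneurons, Cnr1 and Nr2f2 were called in more than 1 table. Cnr1, the cannabinoid receptor found on Cck neurons and on projection neurons, was 37.3 FPKM in R6/1 and 94.0 FPKM in wild type at 8 weeks, and 22.6 FPKM in control-AAV R6/1 against 47.8 FPKM in control-AAV wild type (q = 0.00160 and 0.00312 in the authors' deposited tables). Nr2f2, a nuclear receptor of caudally derived interneurons that is also made in hypothalamus and thalamus, was 12.9 FPKM in CHL2 and 6.79 FPKM in wild type (q = 0.00303 in the authors' deposited table). It was 12.3 FPKM in control-AAV R6/1, against 6.51 FPKM in control-AAV wild type (q = 0.0172), and 4.73 FPKM under Elk-1 AAV, against 12.6 FPKM in control-AAV R6/1 (q = 0.0122 in the authors' deposited tables). Nr2f2 was thus called with the sign of Calb2 in 3 of the 4 tables in which Calb2 was called. The control-AAV R6/1 and Elk-1 AAV comparisons share the control-AAV R6/1 pool, so their calls are not independent. Reln, the extracellular protein reelin, fell at 8 weeks, at 13.8 FPKM in R6/1 and 18.8 FPKM in wild type (q = 0.0129 in the authors' deposited table). By table, 0 of 12 genes of this list were called at 4 weeks (4 at an unadjusted p below 0.05), 2 of 12 fell at 8 weeks, 1 of 12 rose in CHL2, 1 rose and 1 fell of 11 in control-AAV R6/1, and 1 of 11 fell under Elk-1 AAV, with medians of -0.089, -0.18, 0.22, -0.13 and -0.34.

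Pvalb, the calcium-binding protein parvalbumin of fast-spiking interneurons (chromosome 15, 78021547 to 78034586, mm9), was not called in any table. Its levels were 30.6 FPKM in R6/1 and 26.1 FPKM in wild type at 4 weeks, and 35.2 FPKM in R6/1 and 31.5 FPKM in wild type at 8 weeks, in the authors' deposited tables. In CHL2 it was 42.4 FPKM, against 55.8 FPKM in wild type (log2 fold change -0.40, interval -0.67 to -0.12, q = 0.0922 in the authors' deposited table), and -0.24 relative to genes of like transcript length. Control-AAV R6/1 and control-AAV wild type were nearly equal at 109 and 108 FPKM (0.012, -0.37 to 0.39, q = 0.998 in the authors' deposited table). Under Elk-1 AAV it was 86.7 FPKM, against 112 FPKM in control-AAV R6/1 (-0.37, q = 0.975 in the authors' deposited table). Its interval in the R6/1 comparisons spans -0.047 to 0.50 at 4 weeks and -0.15 to 0.47 at 8 weeks.

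Genes linked to fast-spiking cells gave single calls. Erbb4, the neuregulin receptor of these interneurons, rose at 4 weeks, at 7.84 FPKM in R6/1 and 4.85 FPKM in wild type (q = 0.0145 in the authors' deposited table). This change was not set relative to genes of like transcript length. Pthlh, a peptide of the parathyroid hormone family made by striatal interneurons in mouse, fell at 8 weeks, at 1.81 FPKM in R6/1 and 3.74 FPKM in wild type (q = 0.0111 in the authors' deposited table). Ank1, an ankyrin gene, rose at 8 weeks (0.42, q = 0.0315 in the authors' deposited table). Syt2, the fast calcium sensor of parvalbumin terminals, fell in CHL2, at 10.4 FPKM against 14.2 FPKM in wild type (q = 0.0262), and in control-AAV R6/1, at 3.69 FPKM against 8.64 FPKM in control-AAV wild type (q = 0.00548 in the authors' deposited tables). In all, 1 of 9 rose at 4 weeks, 1 rose and 1 fell of 9 at 8 weeks, 1 of 9 fell in CHL2, 1 of 8 fell in control-AAV R6/1 and 0 of 8 were called under Elk-1 AAV by Cuffdiff (1 at an unadjusted p below 0.05).

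The cholinergic markers were not called in any of the 5 tables. Chat makes acetylcholine, Slc18a3 loads it into vesicles and Slc5a7 takes choline back up; Chat and Slc18a3 share 1 listed position (chromosome 14, 33221388 to 33279095, mm9), so reads may be shared between them, and Slc5a7 is listed on chromosome 17 (54412914 to 54438359). At 8 weeks Chat was 5.81 FPKM in R6/1 and 7.80 FPKM in wild type (log2 fold change -0.43, interval -0.80 to -0.049, q = 0.236 in the authors' deposited table). Slc5a7 was 6.13 FPKM in R6/1 and 7.76 FPKM in wild type there (-0.34, -0.63 to -0.052, q = 0.201 in the authors' deposited table). All 3 had lower values in the model at 8 weeks, in CHL2 and in control-AAV R6/1, and higher values in R6/1 at 4 weeks, with q between 0.201 and 0.999. The unadjusted interval of Slc5a7 also lay below 0 in CHL2 (-0.51 to -0.016) and in control-AAV R6/1 (-1.33 to -0.053). At 4 weeks it lay above 0 (0.016 to 0.50). The intervals of Chat and Slc18a3 spanned 0 at 4 weeks and in CHL2. Slc5a7 at 4 weeks was 8.04 FPKM in R6/1 and 6.74 FPKM in wild type (0.26, q = 0.822 in the authors' deposited table), and its change at 8 weeks was lower than at 4 weeks by a difference of -0.59 (-0.97 to -0.22), which did not pass. In control-AAV R6/1 Slc18a3 was 1.94 FPKM, against 4.93 FPKM in control-AAV wild type (-1.34, -2.53 to -0.16, q = 0.331 in the authors' deposited table). Under Elk-1 AAV Slc18a3 was 3.77 FPKM, against 1.99 FPKM in control-AAV R6/1 (0.92, -0.11 to 1.95, q = 0.999 in the authors' deposited table). The intervals at 10 weeks are wide: that of Chat runs from -1.41 to 0.17 in control-AAV R6/1 and from -0.78 to 0.83 under Elk-1 AAV.

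Of the other cholinergic genes 1 rose at 8 weeks and in control-AAV R6/1, and 1 fell at 4 weeks, at 8 weeks and under Elk-1 AAV. Ache, the enzyme that breaks down acetylcholine and is also made by other neurons, rose at 8 weeks, at 49.1 FPKM in R6/1 and 36.1 FPKM in wild type (q = 0.0111 in the authors' deposited table). Slc17a8, a vesicular glutamate transporter of cholinergic interneurons, fell at 8 weeks, at 2.24 FPKM in R6/1 and 3.58 FPKM in wild type (q = 0.0191 in the authors' deposited table). Zic4, a zinc finger factor also made in the septum, fell at 4 weeks (-0.77) and rose in control-AAV R6/1 (1.95), both called in the authors' deposited tables, in the direction of the septal and hypothalamic list. Ecel1, an endopeptidase gene, fell under Elk-1 AAV, at 16.5 FPKM against 27.4 FPKM in control-AAV R6/1 (q = 0.0385 in the authors' deposited table). The genes tested were 10 at 4 weeks, 10 at 8 weeks, 8 in control-AAV R6/1 and 7 under Elk-1 AAV. Under Elk-1 AAV all 7 had lower values than in control-AAV R6/1 (median -0.25, 2 at an unadjusted p below 0.05). In CHL2 0 of 10 were called by Cuffdiff, with 6 at an unadjusted p below 0.05.

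Among genes of GABA synthesis and transport and interneuron lineage factors the 1 gene called in any table was Slc6a11. Gad1, which makes GABA, was 167 FPKM in R6/1 and 179 FPKM in wild type at 8 weeks (q = 0.947 in the authors' deposited table), and Gad2 was 96.6 FPKM in R6/1 and 93.9 FPKM in wild type (q = 0.992 in the authors' deposited table). Of 6 genes of GABA synthesis and transport, Slc6a11, a GABA transporter of astrocytes, rose at 8 weeks (0.43, q = 0.0155 in the authors' deposited table), and at 4 weeks, in CHL2, in control-AAV R6/1 and under Elk-1 AAV 0 were called by Cuffdiff, with 0, 0, 1 and 1 at an unadjusted p below 0.05. Of 11 interneuron lineage factors 0 were called by Cuffdiff in any table, with 1, 0, 4, 0 and 0 at an unadjusted p below 0.05 and list medians of -0.020, -0.030, -0.0080, 0.10 and 0.18. Lhx6, the factor that specifies Pvalb and Sst interneurons, was 9.89 FPKM in R6/1 and 8.84 FPKM in wild type at 8 weeks (q = 0.816 in the authors' deposited table), and 7.89 FPKM in control-AAV R6/1 against 10.5 FPKM in control-AAV wild type (q = 0.644 in the authors' deposited table).

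The AAV tables also stood apart in level. Both groups of each AAV table had higher Pvalb, Sst, Npy, Vip and Cck values than any group of the other 3 tables. Pvalb was at 86.7 to 112 FPKM, against 26.1 to 55.8 FPKM elsewhere. For Vip the margin was small, with 8.62 FPKM in control-AAV R6/1 against 8.54 FPKM in wild type at 1 year. Nos1, Chat and Slc5a7 were lower in the AAV groups than in any other group. Since the tables were normalised separately and differ in age and injection, the sources of these level differences cannot be told apart.

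The genes whose changes over the 5 comparisons lay closest to each called marker were found by the root mean square difference in log2(FPKM + 1) change among 12324 genes. For Calb2 they were Gpx3, AW551984, Irs4, Slc17a6 and Baiap3, at distances of 0.21 to 0.26. For Vip they were Egr1, 6530418L21Rik, Nr4a1, Camk2n1 and Itpka (0.12 to 0.19), of which Egr1 and Nr4a1 are immediate-early transcription factors. For Cck they were Synpo, Rtn4r, Vipr1, Sept5 and Cacng3 (0.077 to 0.092). Those of Npy were Cited4, Arhgap10, Tmod1, Ngef and Kctd1 (0.092 to 0.10), and those of Sst were Gnb5, Cdc25b, Vti1b, 5730508B09Rik and Hebp1 (0.027 to 0.075). The nearest genes of Calb2 were farther from it than those of Sst, Npy, Vip and Cck were from theirs. The distance is not scaled to the size of the changes, which for Calb2 reached 1.52 in control-AAV R6/1 and -1.67 under Elk-1 AAV. A greater distance therefore does not show a more distinct profile. The comparisons share the control-AAV R6/1 pool, and these distances are a description of 5 pooled changes.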

How the data were processed

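Total RNA of mouse striatum was made into libraries with an Illumina TruSeq kit, per the labels' protocols. Cuffdiff, Cufflinks, TopHat, Bowtie and the build mm9 are listed, without versions or roles, per the submitters' processing notes; for annotation and strand setting the sources used here state nothing. Deposited by the authors were 5 tables of group FPKM values, 1 pooled value per group and gene. The deposited log2 fold change is that of these values to within 0.01, except in 0 to 5 rows of each table. The tables also hold the authors' test statistic, a score with no fixed range, together with a p-value and a q-value per gene, also deposited. Recomputing Benjamini-Hochberg values over the rows gave the deposited q. A second deposited log2 column, with a small added constant, was not used. Whether listed starts count from 0 or 1 is not stated.

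Calls are the authors' q below 0.05. The deposited statistic was smaller than the normal deviate of p (median ratio 0.598 to 0.729), so standard errors were taken from the deposited p under a normal test. Differences between 2 deposited changes were tested with these errors and adjusted over all shared genes, in Python 3.11.15 with scipy 1.17.1. The test was also run on simulated data drawn from the same standard errors under the same normal model. That run cannot show whether these standard errors are right for the deposited p. The 2 AAV tables share a pool and were not tested against each other. Marker lists were counted over genes with a mean of at least 0.5 FPKM, without the 10 markers. All 10 markers, called list genes (up to 6 a list and table), genes tied to a marker by role and the 5 nearest genes of each called marker were named; the markers and lists were chosen with earlier results of these data known. Transcript lengths are the longest per symbol in GENCODE M21, matched for 90.4% to 90.8% of genes. Promoter sequences are RefSeq's on GRCm38.p6, matched by symbol for 9 of 10 markers; Calb2 has no entry in the table used. Alternatives were other thresholds, filters, standard errors, pseudocounts and scalings. With no value per library, depth, intervals from counts and fits over libraries could not be given.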

Additional observations from a re-analysis of the deposited data

Results flagged for a closer look

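The change of Calb2 against wild type differed between the ages of R6/1. The log2 fold change was 0.81 at 8 weeks and -0.34 at 4 weeks, a difference of 1.15 by a normal test of the 2 deposited changes. In R6/1 Calb2 was 24.7 FPKM at 4 weeks and 26.4 FPKM at 8 weeks, while wild type had 31.3 and 15.1 FPKM. The ages were normalised separately, and a change with age within either genotype was not tested. The summed level of 11 septal and hypothalamic genes was 46.7 FPKM in R6/1 against 34.2 FPKM in wild type at 8 weeks. At 4 weeks it was 79.4 against 155 FPKM. Thalamic genes summed to 39.5 against 37.7 FPKM at 8 weeks and 43.9 against 46.7 FPKM at 4 weeks. Their median log2 fold changes, -0.23 and 0.16, had the opposite sign to those of Calb2. Olfactory and neuroblast genes had medians of -0.080 at 8 weeks and -0.085 at 4 weeks. The part of these lists in the Calb2 difference was not tested.

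The change of Nos1 differed between CHL2 at 1 year and R6/1 at 8 weeks. The log2 fold change was 0.38 in CHL2 and -0.37 in R6/1, a difference of 0.75 by the same test. Neither change alone had a q below 0.05 in the authors' deposited tables. Model, age and normalisation differ together in this pair, so they cannot be told apart. The Nos1 difference no longer passed with standard errors from the deposited statistic as it stands, nor relative to genes of like transcript length. The Calb2 difference did not pass under the first of these.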

How the results depend on the processing

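No paired analysis was possible because the deposited tables hold 1 pooled value per group; for the same reason the fits with a replicate block and those leaving out each library were not run, and depth limits could not be given. Of 55 recomputed counts of markers, 45 stayed within 1.5 times the reported count. These include counts of 0 that stayed at 0, to which a ratio does not apply. Such were all counts at 4 weeks and all for the difference between control-AAV R6/1 and R6/1 at 8 weeks. With standard errors from the deposited statistic as it stands, 0 markers differed between 8 and 4 weeks, 0 between CHL2 and R6/1 at 8 weeks, 2 were called at 8 weeks (Npy and Cck) and 1 in CHL2 (Npy). With that statistic rescaled to the deposited p, an alternative added after the data were seen, 3 differed between 8 and 4 weeks (Calb2, Cck and Slc5a7) and 3 between CHL2 and R6/1 (Nos1, Vip and Cck). Relative to genes of like transcript length, 0 differed between CHL2 and R6/1, added after the data were seen, and 1 was called in CHL2 (Calb2): Npy, at -0.53, no longer passed there. At q below 0.1, 5 were called in CHL2 (Calb2, Pvalb, Sst, Npy and Nos1), and at q below 0.01, 0 under Elk-1 AAV, where the lowest q of the table is 0.0122. Of 285 single values and list counts, 3 turned sign, none of them called: Cck in CHL2 was 0.077 relative to genes of like length, and Pvalb in control-AAV R6/1 was -0.0045 with the median of all genes at 0 and -0.055 relative to genes of like length. Medians of all genes lay within 0.016 of 0 on the log2 scale, while genes of like length to the markers had medians of -0.10 to 0.14 at 4 weeks and -0.16 to 0.14 in CHL2. Only the markers were set relative to genes of like length. Calls of list genes, such as Erbb4 and Gucy1a2 at 4 weeks and Grin3a in CHL2, were not. With the statistic as it stands, Calb2 kept its call in control-AAV R6/1 and under Elk-1 AAV and lost it at 8 weeks and in CHL2.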
